A study of Homo sapiens with 4 samples.

Results

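The residual expression of 8 genes that mark pluripotent cells was described in CD34+CD31+CD43- cells made from a human embryonic stem cell line. The 8 genes were POU5F1, SOX2, NANOG, DPPA4, SALL4, TDGF1, PRDM14 and ZFP42. They were chosen by symbol, and each matched 1 of the 28285 gene rows. DPPA4 stood at 74.77 to 92.28 TPM (a length-corrected share of all transcripts) and SALL4 at 13.68 to 31.95 TPM in every library. SOX2 and PRDM14 lay at 0 to 0.81 TPM and NANOG at 0 to 1.19 TPM, levels also seen in gene families that are largely silent. POU5F1 was near the floor in GFP-positive cells and at several TPM in GFP-negative cells, a difference that did not pass correction for multiple testing.

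The cells were derived from the established embryonic line H1, with the reporter eGFP (enhanced green fluorescent protein) knocked into GATA2, a transcription factor gene of blood stem and progenitor cells. This genotype was shared by all 4 libraries, and Cre appears in each title with no role stated. Cells with eGFP, labelled hemogenic endothelium (the endothelium that gives rise to blood), are called GFP-positive here, and cells without it, labelled endothelial cells, are called GFP-negative. Both were sorted as CD34+CD31+CD43-, and each fraction had 2 libraries. The titles of the GFP-negative samples also carry the initials HE. No day of differentiation, clone number or separate culture is given in the labels, so the p-values reflect the spread among these libraries alone, and that spread may be technical.

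In pluripotent cells, the transcription factors OCT4 (the protein of POU5F1), SOX2 and NANOG bind regulatory DNA together and activate one another's genes, with OCT4 and SOX2 often side by side on a composite element. PRDM14, SALL4 and ZFP42 are further DNA-binding proteins of this network, DPPA4 is a nuclear protein bound to chromatin, and TDGF1 encodes Cripto, a cell-surface co-receptor for the ligand Nodal. When such cells differentiate, the core factors are silenced, while several members of the wider network are switched off later or are used again in other embryonic cells.

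Promoter sequence of RefSeq (GRCh38.p14), matched by symbol, is given for 4 of the 8 genes. It is shown to set the most abundant gene, DPPA4, beside low genes (SOX2 at 0 to 0.23 TPM, NANOG at 0 to 1.19 TPM) and ZFP42 in between. Each line gives 220 bases, from -250 to -31 relative to the RefSeq start of the gene, 5′ to 3′ on the gene's strand. For NANOG that start lies downstream of the GENCODE v29 start given with its values, so the NANOG window is inside the gene as GENCODE annotates it. Capitals mark matches, on either strand, to the octamer core ATGCAAA, the SOX element ACAATG, the composite of both (CATTGT, any 1 base, then ATGCAAA), the GC box GGGCGG or the GATA element AGATAA. The windows were chr3:109337577-109337796 (minus strand) for DPPA4, chr4:187995521-187995740 (plus strand) for ZFP42, chr12:7789152-7789371 (plus strand) for NANOG and chr3:181711675-181711894 (plus strand) for SOX2.
DPPA4: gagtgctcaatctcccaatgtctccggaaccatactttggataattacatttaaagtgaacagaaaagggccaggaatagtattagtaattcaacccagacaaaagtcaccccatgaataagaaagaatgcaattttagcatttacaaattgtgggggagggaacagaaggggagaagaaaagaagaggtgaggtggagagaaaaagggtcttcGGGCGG
ZFP42: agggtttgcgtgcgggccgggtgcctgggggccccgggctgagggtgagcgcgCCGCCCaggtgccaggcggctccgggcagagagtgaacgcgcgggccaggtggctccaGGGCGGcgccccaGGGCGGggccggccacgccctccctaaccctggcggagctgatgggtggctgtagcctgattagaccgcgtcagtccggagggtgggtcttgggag
NANOG: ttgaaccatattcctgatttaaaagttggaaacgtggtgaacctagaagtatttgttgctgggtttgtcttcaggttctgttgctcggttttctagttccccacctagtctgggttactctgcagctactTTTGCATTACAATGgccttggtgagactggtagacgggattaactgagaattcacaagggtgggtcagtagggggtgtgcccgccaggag
SOX2: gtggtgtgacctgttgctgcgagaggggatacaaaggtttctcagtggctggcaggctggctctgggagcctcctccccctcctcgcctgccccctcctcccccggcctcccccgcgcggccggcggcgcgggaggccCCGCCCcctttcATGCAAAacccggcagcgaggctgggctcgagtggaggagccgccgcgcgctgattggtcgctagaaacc
The NANOG window held the composite element at -120 to -107, in reverse orientation, and the octamer core and the SOX element matched there lie inside it. Of 35116 promoter windows of the same length, 2 (0.0057%) held the composite element, those of NANOG and NRARP. The SOX2 window held an octamer core at -100 to -94, a match found in 3.61% of all windows, and 1 GC box. The DPPA4 window held no octamer core, SOX element or GATA element and 1 GC box, and the ZFP42 window held 3 GC boxes; 38.9% of all windows held at least 1. The SOX element was in 8.47% and the GATA element in 8.12% of all windows. The number of CpG dinucleotides was 3 in the DPPA4 window, 4 in the NANOG window, 19 in the SOX2 window and 21 in the ZFP42 window, against a median of 9 (quartiles 2 and 20). The windows of DPPA4 and NANOG lay below the median and those of SOX2 and ZFP42 above it. Matches describe letters only, and binding was not measured.

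The labelled cell type was checked against its markers. Of 15 endothelial markers with a row, 14 had 1 TPM or more in all 4 libraries (CLDN5 was at 0 in GFP-positive replicate 2), and their summed level was 4538 to 4755 TPM in GFP-positive and 7267 to 7882 TPM in GFP-negative libraries. PECAM1, the gene of CD31, was not analysed here. GATA2, which carries the reporter, was at 302 and 385 TPM in GFP-positive and at 80.2 and 87.3 TPM in GFP-negative libraries, the direction of the sort. In each library, 14730 to 15109 genes reached 1 TPM, and 38.6% to 43.0% of rows were listed at 0.

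TPM keeps no read total, so the floor was described from the values themselves. The lowest value above 0 was 0.01 TPM in each library, which is the rounding of the tables. A second yardstick came from olfactory receptor, taste receptor and keratin-associated protein genes, families that are largely silent outside their own tissues. Of their 497 rows, 3.62% to 7.04% were above 0 in a library. Those above 0 had a median of 0.62 to 1.35 TPM and a 95th percentile of 1.90, 2.58, 3.08 and 4.64 TPM in GFP-positive replicates 1 and 2 and GFP-negative replicates 1 and 2. The highest was OR2A1, at 11.6 TPM in GFP-negative replicate 2. Values up to a few TPM were therefore also seen in genes of these families.

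The spacing of low values gave a further yardstick. TPM was multiplied by length (less 50 nt) for genes annotated with 1 transcript longer than 1500 nt, and 67.3% to 70.2% of the low products lay within 0.15 of a multiple of 1 step, where an even spread would give 30%. The steps were fitted to the same values. If a step is a read, GFP-positive replicates 1 and 2 had 0.894 and 0.590 of the depth of GFP-negative replicate 1, and GFP-negative replicate 2 had 0.795. A gene with a 2 kb transcript then gains 0.321, 0.487, 0.287 and 0.361 TPM per read, so that GFP-positive replicate 2 had the coarsest floor. The reads given below are upper figures, since each used the longest annotated coding transcript.

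**Figure D1:**
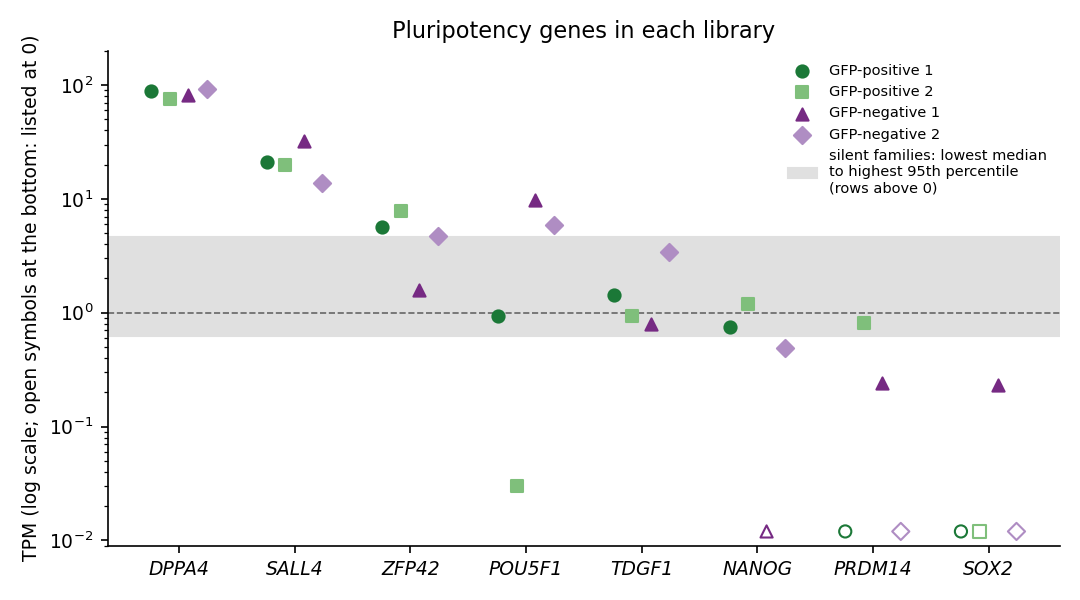
TPM (log axis) of the 8 pluripotency genes, ordered by mean level, in each of the 4 libraries; open symbols at the bottom are values listed at 0. The grey band runs from the lowest median (0.62 TPM) to the highest 95th percentile (4.64 TPM) of silent-family rows above 0, and the dashed line is at 1 TPM. DPPA4 and SALL4 lie above the band in all libraries, SOX2, PRDM14, NANOG and TDGF1 within or below it, and POU5F1 above it only in GFP-negative libraries.

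Of the 32 values of the 8 genes, 6 were listed at 0 and 15 were below 1 TPM. In order of mean level over the 4 libraries, the genes were DPPA4 (84.5 TPM), SALL4 (21.7), ZFP42 (4.94), POU5F1 (4.13), TDGF1 (1.65), NANOG (0.608), PRDM14 (0.263) and SOX2 (0.0575 TPM). The ranges of DPPA4 and SALL4 over the 4 libraries overlapped neither each other nor that of any other member. The ranges over libraries of ZFP42 and POU5F1 overlapped, as did those of POU5F1 and TDGF1, of TDGF1 and NANOG, of NANOG and PRDM14, and of PRDM14 and SOX2, so the order of these neighbours is not separated by their spread. The summed level of all 8 was 119, 105, 126 and 120 TPM in GFP-positive replicates 1 and 2 and GFP-negative replicates 1 and 2. DPPA4 and SALL4 made up 88.0% to 92.7% of it, and the other 6 together had 8.72 to 14.5 TPM.

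The comparison of the fractions asked whether residual pluripotency gene expression differed with the GATA2 reporter. Genes were tested with limma on log2(TPM + 1) if at least 1 TPM was reached in at least 2 libraries. This held for 5 of the 8 genes (POU5F1, DPPA4, SALL4, TDGF1 and ZFP42), while SOX2, NANOG and PRDM14 fell under the filter and are given as values. POU5F1 met the filter through the GFP-negative libraries alone. Of the 5, 0 passed a Benjamini-Hochberg adjusted limma p of 0.05, against 0.447% of all 15425 tested genes (0.123% with the higher level in GFP-positive cells, 0.324% with the lower), and 1 (POU5F1) had an unadjusted p under 0.05, against 14.1% of tested genes. The libraries of the fractions did not overlap for 2 of the 5 (POU5F1 and ZFP42, 1 in each direction). Over all tested genes this share was 44.3% (22.8% higher and 21.5% lower in GFP-positive cells). For POU5F1 the filter fixed that outcome, since a gene kept by the 2 GFP-negative libraries alone cannot overlap. Its unadjusted p is not independent of the filter either. The median log2 fold change was -0.08 over the 5 and 0.02 over all tested genes, GFP-positive minus GFP-negative. Because 1 is added to each TPM, these fold changes are too small for low genes. In bulk RNA, fewer cells with a transcript and less of it per cell cannot be told apart.

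**Figure D2:**
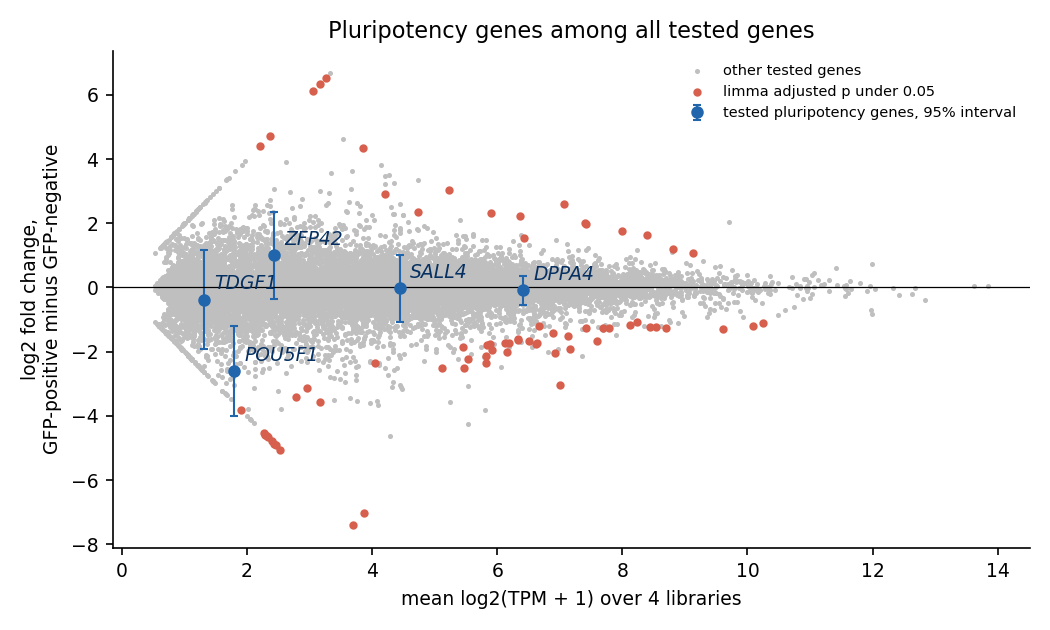
Log2 fold change (GFP-positive minus GFP-negative, limma on log2(TPM + 1)) against mean log2(TPM + 1) for 15425 tested genes; blue points are the 5 tested pluripotency genes with 95% intervals, and red points the 69 genes with an adjusted p under 0.05. DPPA4 and SALL4 lie near 0, and POU5F1 at -2.60 has an interval that does not reach 0 but is not among the red points.

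Among the core factors, POU5F1 (ENSG00000204531; chromosome 6, 31164337 to 31180731, minus strand, by the GENCODE v29 annotation of GRCh38, as for all genes here), which encodes the POU-domain factor OCT4, was the gene that differed most between the fractions. It had 0.93 and 0.03 TPM in GFP-positive replicates 1 and 2, and 9.68 and 5.88 TPM in GFP-negative replicates 1 and 2. Both GFP-negative libraries lay above both GFP-positive libraries and above the 95th percentile of silent-family rows above 0, while both GFP-positive libraries lay below it. The means were 0.48 ± 0.636 TPM (SD, n = 2) and 7.78 ± 2.69 TPM, with a log2 fold change of -2.60 ± 0.57 (SE; 95% interval -3.99 to -1.21). It did not pass over all genes (limma unadjusted p = 0.00369, adjusted p = 0.131). POU5F1 reached 1 TPM in the GFP-negative libraries alone, so it was tested only because it was high in that fraction. Its lack of overlap followed from that selection, and its p-value and interval are not independent of it. At the spacing of low values, the GFP-negative values came to at most 38.5 and 18.6 reads and the GFP-positive values to at most 3.31 and 0.0703. The value of 0.03 TPM was thus worth less than 1 read.

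POU5F1 has near-identical copies, so part of its signal is uncertain. Of the distinct 50-base stretches of its annotated coding transcripts, 37.4% also occurred in transcripts of other genes, with 16.4% in the retrogene POU5F1B, 14.2% in POU5F1P3, 10.5% in POU5F1P4 and 5.14% in the neighbouring gene TCF19. POU5F1B had 1.02 and 0.79 TPM in GFP-positive replicates 1 and 2 and 1.05 and 1.47 TPM in GFP-negative replicates 1 and 2 (limma adjusted p = 0.899). Both GFP-negative values of POU5F1B were above both GFP-positive ones, the same direction as POU5F1 (log2 fold change -0.24). The part of these copies in the POU5F1 values was not tested. TCF19, a gene induced late in the G1 phase, had 15.61 and 15.96 TPM in GFP-positive and 28.18 and 25.85 TPM in GFP-negative replicates 1 and 2 (limma adjusted p = 0.301). Its part in the POU5F1 values was not tested.

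SOX2 (ENSG00000181449; chromosome 3, 181711924 to 181714436, plus strand), an HMG-box factor of pluripotent and neural progenitor cells, was listed at 0 in 3 libraries and had 0.23 TPM in GFP-negative replicate 1. If a step is a read, that value matches 1.01 reads at the length of its single GENCODE v29 transcript, 2513 nt. The annotation behind the values was not given. SOX2 was thus at the floor in both fractions. The transcript SOX2-OT, in whose intron SOX2 lies, had 4.1 and 0 TPM in GFP-positive and 0.23 and 0 TPM in GFP-negative replicates 1 and 2.

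NANOG (ENSG00000111704; chromosome 12, 7787794 to 7799141, plus strand), a homeodomain factor, had 0.75 and 1.19 TPM in GFP-positive replicates 1 and 2, and 0 and 0.49 TPM in GFP-negative replicates 1 and 2. The libraries did not overlap, in the direction opposite to POU5F1. All 4 values lay at or below the upper quartile of silent-family rows above 0. They came to at most 6.15, 6.43, 0 and 3.57 reads, and 12.4% of NANOG's 50-base stretches also occurred in NANOGP8 and 8.59% in NANOGP1. NANOG was under the filter. Fitted without a filter, its log2 fold change was 0.68 (95% interval -0.38 to 1.74; limma adjusted p = 0.647), which did not pass.

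PRDM14 (ENSG00000147596; chromosome 8, 70051651 to 70071693, minus strand), a PR-domain zinc-finger protein of pluripotent and primordial germ cells, was listed at 0 in GFP-positive replicate 1 and GFP-negative replicate 2. It had 0.81 TPM in GFP-positive replicate 2 and 0.24 TPM in GFP-negative replicate 1, which came to at most 1.96 and 0.984 reads. The libraries overlapped, and the gene was at the floor in both fractions.

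DPPA4 (ENSG00000121570; chromosome 3, 109326141 to 109337572, minus strand), the chromatin-bound nuclear protein, had 89.5 and 74.8 TPM in GFP-positive replicates 1 and 2, and 81.6 and 92.3 TPM in GFP-negative replicates 1 and 2. It ranked at the 89.9th to 92.1st percentile of all rows and was above every silent-family row in every library. The libraries overlapped, with means of 82.1 ± 10.4 and 86.9 ± 7.56 TPM (SD, n = 2). The log2 fold change was -0.08 ± 0.18 (SE; 95% interval -0.53 to 0.36; limma adjusted p = 0.900). The interval holds differences of up to 0.53 on the log2 scale in one direction and 0.36 in the other. DPPA4 came to at most 218 to 403 reads, and 0.973% of its 50-base stretches also occurred in other genes. Its paralogue and neighbour DPPA2 had 0 and 1.4 TPM in GFP-positive and 0.83 and 1.59 TPM in GFP-negative replicates 1 and 2. The genes DPPA3 and DPPA5 were listed at 0 in all 4 libraries.

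SALL4 (ENSG00000101115; chromosome 20, 51782331 to 51802520, minus strand) encodes a zinc-finger protein that recruits the NuRD chromatin remodelling and deacetylase complex. It had 21.3 and 19.8 TPM in GFP-positive replicates 1 and 2, and 31.95 and 13.68 TPM in GFP-negative replicates 1 and 2. The GFP-negative libraries held both the highest and the lowest value, so the spread within that fraction was larger than the difference between fractions. The means were 20.6 ± 1.01 and 22.8 ± 12.9 TPM (SD, n = 2), with a log2 fold change of -0.03 ± 0.43 (SE; 95% interval -1.07 to 1.01; limma adjusted p = 0.989). Leaving out GFP-negative replicate 1 gave 0.55, and leaving out GFP-negative replicate 2 gave -0.61 (limma adjusted p = 0.672 and 0.642). The relatives of the members by family numbered 14, of which 9 were tested, with 0 past limma's adjusted threshold (0.447% of all tested genes), 0 at an unadjusted p under 0.05 (14.1% of all tested genes), 3 log2 fold changes above 0, 6 below and a median of -0.07. SOX1, SOX3 and POU3F1 among them were at 0 in all libraries. SALL1 had 16.7 and 38.9 TPM in GFP-positive and 41.2 and 50.3 TPM in GFP-negative replicates 1 and 2 (limma adjusted p = 0.444), and SALL2 ranged from 8.04 to 14.1 TPM over the 4 libraries.

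ZFP42 (ENSG00000179059; chromosome 4, 187995771 to 188005050, plus strand), the zinc-finger protein REX1 used as a marker of undifferentiated cells, had 5.61 and 7.88 TPM in GFP-positive replicates 1 and 2, and 1.57 and 4.69 TPM in GFP-negative replicates 1 and 2. The lower GFP-positive value exceeded the higher GFP-negative one, again opposite to POU5F1. The means were 6.75 ± 1.61 and 3.13 ± 2.21 TPM (SD, n = 2), with a log2 fold change of 1.00 ± 0.56 (SE; 95% interval -0.35 to 2.36) that did not pass (limma adjusted p = 0.489). In GFP-negative replicate 1 it was below the 95th percentile of silent-family rows above 0, and in the other 3 libraries above it. It came to at most 23.3 and 21.6 reads in GFP-positive and 7.30 and 17.3 reads in GFP-negative replicates 1 and 2.

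TDGF1 (ENSG00000241186; chromosome 3, 46574534 to 46582463, plus strand), the Nodal co-receptor Cripto, had 1.43 and 0.94 TPM in GFP-positive replicates 1 and 2, and 0.80 and 3.42 TPM in GFP-negative replicates 1 and 2. The GFP-negative libraries again held both extremes, and all 4 values lay below the 95th percentile of silent-family rows above 0. The log2 fold change was -0.38 ± 0.63 (SE; 95% interval -1.92 to 1.16; limma adjusted p = 0.865). Leaving out GFP-negative replicate 1 gave -1.03, and leaving out GFP-negative replicate 2 gave 0.27 (limma adjusted p = 0.628 and 0.886). Of its 50-base stretches, 39.9% also occurred in TDGF1P3, so reads from those stretches could belong to either.

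For the Nodal pathway in which Cripto acts, 13 of 18 listed genes were tested, 0 passed limma's adjusted threshold (0.447% of all tested genes) and 2 had an unadjusted p under 0.05 (14.1% of all tested genes), with 7 log2 fold changes above 0 and 6 below and a median of 0.08 (0.02 over all tested genes). DAND5 of this list was counted in the 2 and in the 7. It met the filter through the GFP-positive libraries alone, so its direction was set by that filter. The ligand gene NODAL was listed at 0 in 3 libraries and at 1.31 TPM in GFP-negative replicate 2. The related co-receptor gene CFC1 and the receptor gene ACVR1C were at 0 in all 4. Receptor and signal-transducing genes were present: ACVR1B, an activin receptor, averaged 34.5 TPM in GFP-positive and 41.1 TPM in GFP-negative cells (limma adjusted p = 0.770), SMAD2 51.4 and 56.2 TPM (0.857), and SMAD4 74.4 and 77.4 TPM (0.931). HSPA5, the endoplasmic reticulum chaperone GRP78, which also binds Cripto, averaged 1120 and 992 TPM (limma adjusted p = 0.817). The named receptor, SMAD and chaperone genes were thus above every silent-family row, while NODAL, CFC1 and ACVR1C were at or near 0.

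SALL4 and NANOG recruit NuRD, and PRDM14 acts with the co-repressor CBFA2T2. All 15 listed partner genes were tested and at or above 1 TPM in every library, 0 passed limma's adjusted threshold (0.447% of all tested genes) and 2 had an unadjusted p under 0.05 (14.1% of all tested genes), with 9 above 0, 6 below and a median of 0.06. CHD4, the remodelling ATPase of NuRD, had 311 and 417 TPM in GFP-positive and 276 and 218 TPM in GFP-negative replicates 1 and 2 (limma adjusted p = 0.299). HDAC1 averaged 200.2 and 193 TPM and HDAC2 244 and 253 TPM in GFP-positive and GFP-negative cells (limma adjusted p = 0.982 and 0.917), and RBBP4, a histone-binding subunit, 307.7 and 250.7 TPM (0.447).

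Other genes of the pluripotency network ranged from 0 to levels far above DPPA4. Of 40 listed genes, 22 had 1 TPM or more in all 4 libraries, 9 were below 1 TPM in all 4, and 5 of those 9 (UTF1, DPPA3, DPPA5, FGF4 and FOXD3) were at 0 throughout. The 28 that were tested had 17 log2 fold changes above 0 and 11 below, with a median of 0.12, 0 passed limma's adjusted threshold (0.447% of all tested genes) and 3 had an unadjusted p under 0.05 (14.1% of all tested genes). TRIM28, a broadly expressed co-repressor of zinc-finger proteins, averaged 1872 TPM in GFP-positive and 1499 TPM in GFP-negative cells (limma adjusted p = 0.399). LIN28A, the RNA-binding protein that blocks let-7 processing, had 477 and 386 TPM in GFP-positive and 304 and 287 TPM in GFP-negative replicates 1 and 2. Its libraries did not overlap, and it did not pass (log2 fold change 0.54 ± 0.15, SE; limma adjusted p = 0.203). DNMT3B, a de novo DNA methyltransferase, averaged 123 and 91.8 TPM (limma adjusted p = 0.422), and the T-box gene TBX3 54.0 and 27.5 TPM (limma adjusted p = 0.283). In this list too, abundant genes stood beside genes at 0.

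**Figure D3:**
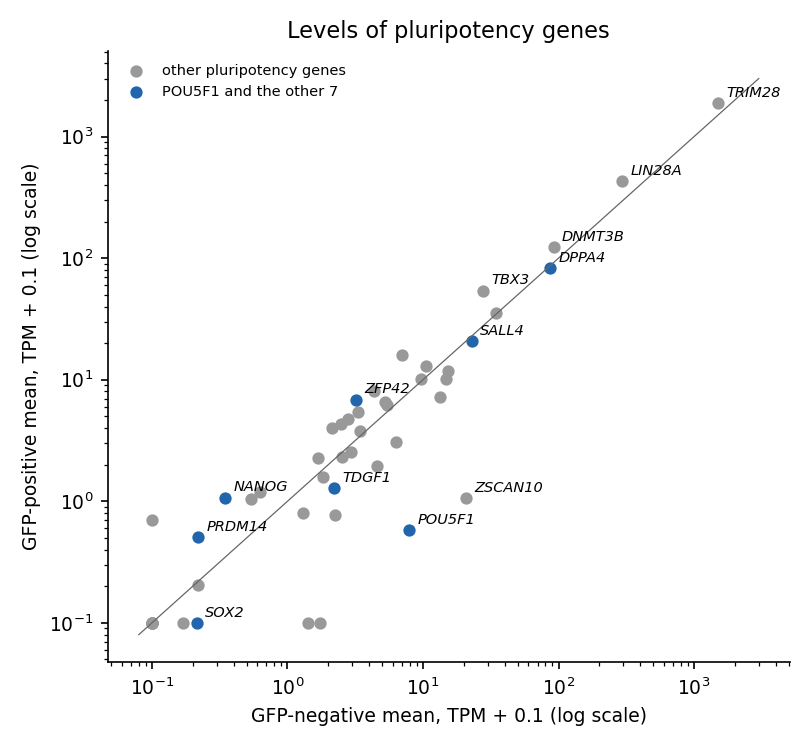
Mean TPM + 0.1 in GFP-positive cells against that in GFP-negative cells (both axes log scale; n = 2 libraries each) for the 8 pluripotency genes (blue) and 40 other genes of the network (grey), with the line of equality. DPPA4 (82.1 and 86.9 TPM) and SALL4 (20.6 and 22.8 TPM) lie close to the line, and POU5F1 (0.48 and 7.78 TPM) and ZSCAN10 (0.96 and 20.7 TPM) far below it.

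Epithelial and surface genes that pluripotent cells also express were tested for 11 of 14 listed genes, of which 0 passed limma's adjusted threshold and 5 had an unadjusted p under 0.05. Over all tested genes these shares were 0.447% and 14.1%. Of the 11, 7 were below 0 and 4 above, with a median log2 fold change of -0.73. RAB25 was counted in the 5 and in the 7. It met the filter through the GFP-negative libraries alone, so its direction was set by that filter. The summed level of the list was 561 to 630 TPM in GFP-positive and 1115 to 1184 TPM in GFP-negative libraries. CD9, a tetraspanin, had 120 and 133 TPM in GFP-positive and 246 and 281 TPM in GFP-negative replicates 1 and 2 (log2 fold change -1.06 ± 0.15, SE; limma adjusted p = 0.0580). THY1, a surface glycoprotein of many stromal and endothelial cells, averaged 223 and 495 TPM (limma adjusted p = 0.162). PODXL, the carrier of the TRA-1-60 antigen and a sialomucin of endothelium, averaged 162 and 267 TPM (limma adjusted p = 0.202), and the tight junction gene CLDN7 20.4 and 70.8 TPM (limma adjusted p = 0.112). The 4 genes with a log2 fold change above 0 included EPCAM, an epithelial adhesion molecule, at means of 14.9 and 8.07 TPM (limma adjusted p = 0.555), ALPL, an alkaline phosphatase, at 17.2 and 9.56 TPM (0.366), and CLDN6, a tight junction gene, at 17.5 and 11.6 TPM (0.623). CD24 was not analysed here.

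Markers of other cells that use these genes were set beside them. Of 10 germ cell markers, 4 (TFAP2C, DPPA3, DDX4 and DAZL) were at 0 in all libraries, and the summed level was 24.6 to 35.2 TPM in GFP-positive and 99.3 to 109 TPM in GFP-negative libraries. Of the 6 tested, 1 log2 fold change was above 0 and 5 below, with a median of -1.57. An unadjusted limma p under 0.05 was reached by 2 of them, against 14.1% of all tested genes. Past the adjusted threshold, 1 fell, against 0.324% of all tested genes. This was KIT, the stem cell factor receptor, from 36.7 and 35.8 TPM in GFP-negative to 6.16 and 6.43 TPM in GFP-positive replicates 1 and 2 (limma adjusted p = 0.0483). KIT, SOX17 and PRDM1 of this list are also expressed in endothelium or blood. Of 15 neural markers, SOX1, SOX3, OTX2 and HES5 were at 0 throughout and 3 were tested, with 0 past limma's adjusted threshold (0.447% of all tested genes), 1 at an unadjusted p under 0.05 (14.1% of all tested genes) and a median log2 fold change of 0.00. NES, an intermediate filament gene also of endothelium, averaged 214 TPM in both fractions. Other members of both lists were above 0: DND1, an RNA-binding protein of germ cells, had 6.67 to 14 TPM over the 4 libraries, TUBB3, a neuronal tubulin, 136 to 233 TPM, and NCAM1, an adhesion molecule, 17.6 to 39.4 TPM. The part of such cells in the members' values was not tested.

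Of 15 primitive streak and mesoderm markers with a row, T and GSC were at 0 in every library, 8 were tested, 0 passed limma's adjusted threshold (0.447% of all tested genes) and 2 had an unadjusted p under 0.05 (14.1% of all tested genes), with 4 log2 fold changes above 0, 4 below and a median of 0.03. EVX1, counted in the 4 below, met the filter through the GFP-negative libraries alone, so its direction was set by that filter. HAND1, a transcription factor of mesoderm, had 26.4 and 9.97 TPM in GFP-positive and 2.97 and 2.51 TPM in GFP-negative replicates 1 and 2 (log2 fold change 2.22; limma adjusted p = 0.162). In the other direction, APLNR, the apelin receptor of mesoderm and endothelium, averaged 383 TPM in GFP-positive and 647 TPM in GFP-negative cells (limma adjusted p = 0.0918). Of 10 endoderm markers, 7 were tested, 0 passed and 3 had an unadjusted p under 0.05 (again against 0.447% and 14.1% of all tested genes), with 3 log2 fold changes above 0, 4 below and a median of -0.63. GATA6, a transcription factor of endoderm and mesoderm, had 58.27 and 42.70 TPM in GFP-positive and 29.03 and 28.65 TPM in GFP-negative replicates 1 and 2 (log2 fold change 0.77; limma adjusted p = 0.250). In the other direction, APOA1, an apolipoprotein gene, had 8.42 and 7.41 TPM in GFP-positive and 38.0 and 63.6 TPM in GFP-negative replicates 1 and 2 (limma adjusted p = 0.0541).

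**Figure D4:**
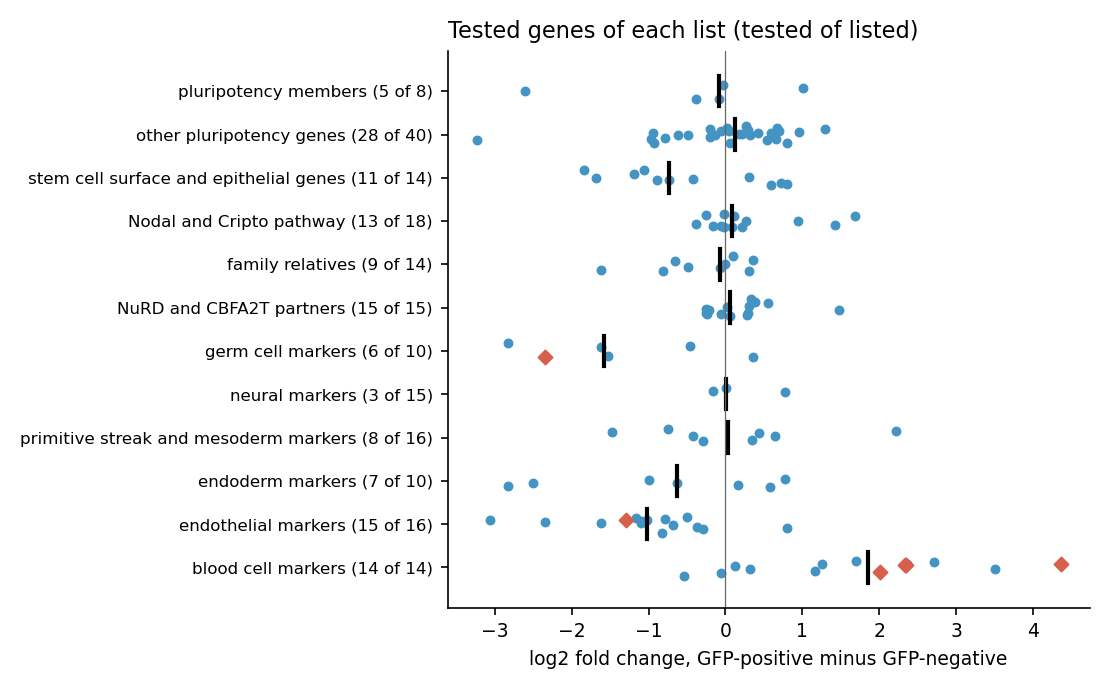
Log2 fold change (GFP-positive minus GFP-negative, limma on log2(TPM + 1)) of the tested genes of each list; black bars are medians, red diamonds genes with an adjusted p under 0.05, and the numbers in brackets tested and listed genes. The 8 pluripotency genes (5 tested) have a median of -0.08, between endothelial markers at -1.02 and blood cell markers at 1.85. The lowest median is that of germ cell markers, at -1.57.

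The endothelial and blood cell marker lists had medians on opposite sides of 0. Of 15 tested endothelial markers, 14 were below 0 in GFP-positive cells, with a median log2 fold change of -1.02, and 1 fell, CD34 (limma adjusted p = 0.0316), against 0.324% of all tested genes. Of 14 blood cell markers, 12 were above 0 and 2 below, with a median of 1.85. Of these, 4 rose, GATA2, GFI1 and HBG2 (limma adjusted p = 0.0316 each) and MYB (0.0439), against 0.123% of all tested genes. GATA2 carries the reporter, so its direction was set by the sort. TAL1 was below 0, with means of 231 TPM in GFP-positive and 336 TPM in GFP-negative cells (limma adjusted p = 0.250). PTPRC, also below 0, had 0.31 to 2.64 TPM. RUNX1 averaged 263 and 115 TPM (0.159), and GFI1B 115 and 105 TPM (0.823). SPN, the gene of CD43, had 10.2 to 16.9 TPM over the 4 libraries (0.787). With a pseudocount of 0.1, without a filter on low values or without a variance trend, 0 endothelial, blood or germ cell markers passed limma's adjusted threshold. With 1 library left out, the medians stayed on the same side of 0. They were -1.25 to -0.77 for endothelial markers and 1.54 to 2.06 for blood cell markers. The summed level of the blood markers was 1409 to 1492 TPM in GFP-positive and 724 to 760 TPM in GFP-negative libraries. The part of either list in the members' values was not tested.

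The genes with the pattern most like each tested member were found by Euclidean distance of log2(TPM + 1) over the 4 libraries, as a description. For POU5F1 they were GIMAP4 (distance 0.33; 0.77, 0, 9.71 and 4.57 TPM in GFP-positive replicates 1 and 2 and GFP-negative replicates 1 and 2) and CLDN5 (0.38; 1.09, 0, 7.46 and 5.36 TPM). For DPPA4 they were EIF1AX (0.08) and PTPLAD1 (0.10), for SALL4 MSRB2 (0.27) and MOSPD3 (0.27), and for TDGF1 FBXO43 (0.31) and WDR17 (0.36). For ZFP42 they were AC002467.7 (0.29) and GLDC (0.30).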

How the data were processed

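The authors deposited 1 table per library with Ensembl identifier, symbol and value; the unit was taken as TPM from the values, which sum to 996324 to 997293 in each library, and from RSEM, which the submitters' processing notes name with Bowtie and the builds hg19 and mm10, without versions or roles. Neither annotation nor parameters were given in the sources used here. RNA was extracted with Trizol and prepared with a TruSeq RNA kit, per the labels' protocols. Read totals are unknown. Identifiers were matched to GENCODE v29 on GRCh38 (25364 of 28285), from which printed gene coordinates come. The 8 genes and all lists were chosen with earlier results of these data known. Limma 3.58.1 in R 4.3.3 used log2(TPM + 1) and a trended variance prior, keeping genes at or above 1 TPM in at least 2 libraries, with two-sided p-values adjusted by Benjamini-Hochberg over all 15425 tested genes. The script was checked on data with known changes. By rule, genes named were the 8, those drawn from the 4 highest means of each other list, list members past the threshold, defining markers, copies and overlapping transcripts, and the 2 genes nearest in pattern to each tested member. Chosen after their values were seen were NODAL, DAND5, DPPA2, EPCAM, ALPL, CLDN6, CLDN5, EVX1, the genes named as at 0, ZSCAN10, RAB25, FOXH1 and CBFA2T3. Alternatives were another pseudocount, other filters, no trend, other scalings, a block for replicate number and leaving out each library.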

Additional observations from a re-analysis of the deposited data

How the results depend on the processing

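Over 15 settings, 58 of 68 fold changes of the 5 tested pluripotency genes kept direction and side of the threshold. POU5F1 stayed below 0 in each setting it could be tested in (-4.39 to -2.15; limma adjusted p 0.0353 to 0.598) and passed with the replicate block alone (-2.60). Of the near-zero values that changed sign, DPPA4 was 0.044 without GFP-positive replicate 2, then 0.0036 without GFP-negative replicate 2, with a range of -0.21 to 0.044, also with the filter re-applied to the 3 libraries left, a choice made after seeing the data. SALL4 ran from -0.61 to 0.55 with a library left out (0.018 for GFP-positive replicate 2 and 0.55 for GFP-negative replicate 1, also with the filter re-applied), and TDGF1 from -1.03 to 0.27. POU5F1 could not be tested with the filter re-applied without either GFP-negative library, TDGF1 without GFP-positive replicate 1 or without GFP-negative replicate 2, and POU5F1, TDGF1 and ZFP42 with a mean above 5 TPM. Replicate numbers were shared only as numbers: deviations of the fractions correlated at 0.07 across genes. The count of all genes past the threshold, 69, was 0 with a pseudocount of 0.1, without a filter and without a trend, 164 with a mean above 5 TPM and 596 with the replicate block, 0 to 0 with each library left out, and 58, 53, 18 and 65 with the filter re-applied (an arm left with 1 library was assumed to vary like the other); unadjusted limma p-values under 0.05 numbered 1225 to 2631. Of other pluripotency genes, 1 passed with the replicate block, and their median was 0.27 with a mean above 5 TPM and 0.022 to 0.25 with a library left out. Of the 98 tested genes in the remaining lists, 6 passed. The count was 0 with a pseudocount of 0.1, with no filter and with no trend. It was 14 with a mean above 5 TPM and 30 with the replicate block. With a library left out, 1 fraction holds 1 library, so no count is given for these genes. List medians kept their sign in 108 of 121 cases; those that changed were of Nodal, relative, neural and mesoderm lists. With the upper quartile of silent families as the floor, 3 genes lay above it in all libraries, against 5. The cause of these changes was not tested.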

Other observations

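The genes given here were chosen after their values were seen. ZSCAN10, a zinc-finger factor of pluripotent cells, had 0.28 and 1.64 TPM in GFP-positive and 33.8 and 7.61 TPM in GFP-negative replicates 1 and 2, the same direction as POU5F1 (log2 fold change -3.23; limma adjusted p = 0.159). RAB25, a vesicle trafficking gene of epithelia, had 2.17 and 2.23 TPM in GFP-negative replicates 1 and 2 and was listed at 0 in the GFP-positive ones (limma adjusted p = 0.249). RAB25 and ZSCAN10 are thus low in 1 fraction, and RAB25 met the filter through the GFP-negative libraries alone. In the other direction, FOXH1, the DNA-binding partner of SMAD2 in Nodal signalling, had 18.9 and 27.6 TPM in GFP-positive and 7.14 and 5.80 TPM in GFP-negative replicates 1 and 2 (log2 fold change 1.68; limma adjusted p = 0.127). CBFA2T3, a co-repressor related to CBFA2T2, had 65.6 and 70.7 TPM against 24.2 and 23.7 TPM (log2 fold change 1.47; limma adjusted p = 0.0560).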
